A study of Homo sapiens with 9 samples.

Results

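The comparison described here set SNU5 cells given gold nanorods carrying ramucirumab against SNU5 cells given ramucirumab alone, and it used 6 of the 9 RNA-seq libraries of the study. Libraries were assigned by treatment label only. The AuNR-PEG-Ab group (NR, 3 libraries) had received ramucirumab joined through polyethylene glycol (PEG) to rod-shaped gold particles, and the Ab group (3 libraries) had received free ramucirumab. The remaining 3 libraries came from cells given the same antibody on gold spheres (AuSP-PEG-Ab, SP) and are used only for values placed side by side. All groups had antibody, so no library came from untreated cells or from cells given particles without antibody. The listed setting was 8 μg/mL of antibody for 24 h in serum-containing medium. The paper gives this dose and time for its viability assays and states none in its RNA sequencing methods. The antibody and its listed dose were shared by both groups, and rod, linker and attachment of the antibody cannot be told apart within this comparison. The labels do not say whether the groups were cultured, prepared or sequenced together, so such differences cannot be told apart from treatment either. The paper reported more uptake of antibody on particles than of free antibody, so a shared dose is not a shared amount in the cells. SNU5 is an established human gastric carcinoma line, and poly-A RNA was sequenced. The paper's text calls the libraries of a group biological replicates and its reporting form describes independent repeats of the cell experiments in general. The sample labels do not tie each library to a culture of its own, so p-values measure only the spread between these libraries.

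The deposited counts summed to 25735410, 13863155 and 15943980 in NR libraries 1 to 3 and to 19566064, 26318227 and 21031024 in Ab libraries 1 to 3. A count of 3, taken as the floor for a single library, corresponded to between 0.115 and 0.215 counts per 1000000 counts (CPM). Mitochondrially encoded genes held 4.59%, 4.36% and 4.41% of the counts in NR and 3.71%, 3.41% and 3.54% in Ab, with no overlap between the groups. Levels below are CPM after TMM scaling, fold changes are NR over Ab on the log2 scale from edgeR, and adjusted p-values are those of its quasi-likelihood test, corrected by the Benjamini-Hochberg method across every gene tested. A gene is called higher or lower when its adjusted p was under 0.05 and its fitted change was at least 2-fold.

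As background, ramucirumab is an antibody to VEGFR2, the receptor for VEGF-A that is encoded by KDR. Gold particles coated with antibody are taken up by cells into endosomes and lysosomes. Several stress programs that read out in RNA are well known in cancer lines: the integrated stress response, in which ATF4 and its partner CHOP (DDIT3) raise genes for amino acid supply and tRNA charging, the SREBP2 program of cholesterol synthesis, the NRF2 program of detoxification, and the interferon program, in which STAT and IRF factors act through interferon-stimulated response elements.

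The labelled cell type was first set against marker genes. Of 26 epithelial genes 17 passed the filter on low counts, 7 were called higher in NR and 1 lower, and their summed level was 2801, 2805 and 2860 CPM in NR and 1224, 1140 and 1173 CPM in Ab. KRT8, a simple-epithelium keratin, was the most abundant of them and made up most of each sum. It had 1848, 1883 and 1923 CPM in NR and 678, 643 and 654 CPM in Ab. The tight junction gene CLDN4 had a level of 48.6 ± 2.74 CPM in NR and 46 ± 4.74 CPM in Ab (SD, n = 3), and CLDN7 had 18.5 ± 0.854 and 20.3 ± 1.91 CPM. KRT19, another simple-epithelium keratin, gave 0, 1 and 0 counts in NR and none in Ab, and CLDN3, ESRP1 and RAB25 were also at or under 3 counts in every library. MET, a receptor tyrosine kinase, had 236 ± 1.73 CPM in NR and 254 ± 13.8 CPM in Ab, a log2 difference of -0.10 (SE 0.05, adjusted p = 0.0445). The target of the antibody was close to absent as RNA: KDR gave 0, 0 and 1 counts in NR and 0 in each Ab library. By flow cytometry the paper found uptake of the antibody by SNU5 cells that rose with dose, and it proposes high VEGFR2 expression. The related receptor gene FLT1 gave 1, 0 and 0 counts in NR and 0, 1 and 1 in Ab.

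Markers of other cell types were low, and several differed between the groups. Of 10 fibroblast genes 8 were tested and 4 were called higher in NR, with sums of 116, 109 and 106 CPM in NR and 52.3, 49 and 20.6 CPM in Ab, COL1A1 being the most abundant over the 6 libraries (LUM was level with it in NR, at 37.3 against 36.9 CPM, and far below it in Ab, at 0.942 against 23.9 CPM), none at 0 in all 6 libraries, and THY1 at or under 3 counts in each. Of 11 endothelial genes 4 were tested and 2 were called higher, with sums of 93.8, 89.3 and 88.2 CPM against 64.1, 56.3 and 57 CPM. EGFL7 led that list, EMCN and ROBO4 had no counts, and KDR, FLT1, TEK and TIE1 were at or under 3 counts in every library. Of 18 leukocyte genes 3 were tested, 2 were called higher and 1 lower. The one called lower was CD14, with 2, 7 and 3 counts in NR and 21, 13 and 8 in Ab. CSF1R was called higher at 2.94, 4.02 and 4.37 CPM in NR and 0.156, 0.307 and 0.145 CPM in Ab, and the list's sums were 5.92, 7.32 and 7.18 CPM against 2.92, 1.8 and 1.89 CPM. PTPRC, CD3D, CD3E, MS4A1, LYZ and AIF1 had no counts in any of the 6 libraries, and 13 of the 18 genes were at or under 3 counts throughout. The Fc receptor gene FCGR1A gave 1, 2 and 2 counts in NR and 11, 2 and 7 in Ab and was too low to be tested. By RT-PCR and western blot the paper reports this receptor in SNU5 cells, higher with AuNR-PEG-Ab than with free antibody. The part of these markers in the results below was not tested. In bulk RNA, fewer cells of a type and less RNA per cell cannot be told apart.

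One Ab library had low counts of 4 matrix genes, chosen after their values were seen, though not of COL7A1 or LUM, whose counts are given further on. COL1A1, COL1A2, COL3A1 and FN1, which encode fibrillar collagens and fibronectin, had 293, 33, 11 and 730 counts in Ab library 3, against 580, 198, 72 and 1178 in Ab library 1 and 709, 278, 73 and 1502 in Ab library 2. In NR, FN1 had 4431, 2397 and 2533 counts, a log2 change of 1.70 (SE 0.23, adjusted p = 0.00248) with all 6 libraries and of 1.49 (adjusted p = 8.06e-25) without Ab library 3. When a fold above 2 was itself tested with glmTreat, the adjusted p of FN1 was 0.0541 and its call was lost. COL1A2 counts were 37, 0 and 0 for NR libraries 1 to 3 and 49, 49 and 43 for SP libraries 1 to 3, and its log2 difference between NR and Ab was -3.56 (SE 1.31, adjusted p = 0.068) with all libraries and -4.03 (adjusted p = 0.0306) without Ab library 3. It was also under 0.05 in a fit of all 9 libraries (0.0233) and with the replicate number as a block (0.0398), and between 0.068 and 0.349 in every other alternative that could test the gene. Without NR library 1, the only NR library with counts, the fitted change moved to -10.19 (adjusted p = 0.148), which is not a bound because both remaining NR libraries were at 0.

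Across the transcriptome the 2 groups differed widely. Of 15009 genes tested, 3409 were called (22.7%), with 1862 higher in NR (12.4%) and 1547 lower (10.3%). On adjusted p alone 10916 genes passed (72.7%), 5457 of them higher and 5459 lower, so 7507 genes passed the test with a change under 2-fold. The values of the 3 NR libraries did not overlap those of the 3 Ab libraries in 11208 genes (74.7%). The median log2 fold change of all tested genes was -0.005 and the median size of change was 0.51. Large rises outnumbered large falls: 221 genes were called higher by 3 or more on the log2 scale and 80 lower, and by 5 or more the counts were 40 and 8. Genes called higher took between 8.69% and 8.82% of the counts of an NR library and between 3.05% and 3.13% of an Ab library, while genes called lower took between 4.34% and 4.38% in NR and 11.9% in each Ab library.

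**Figure D1:**
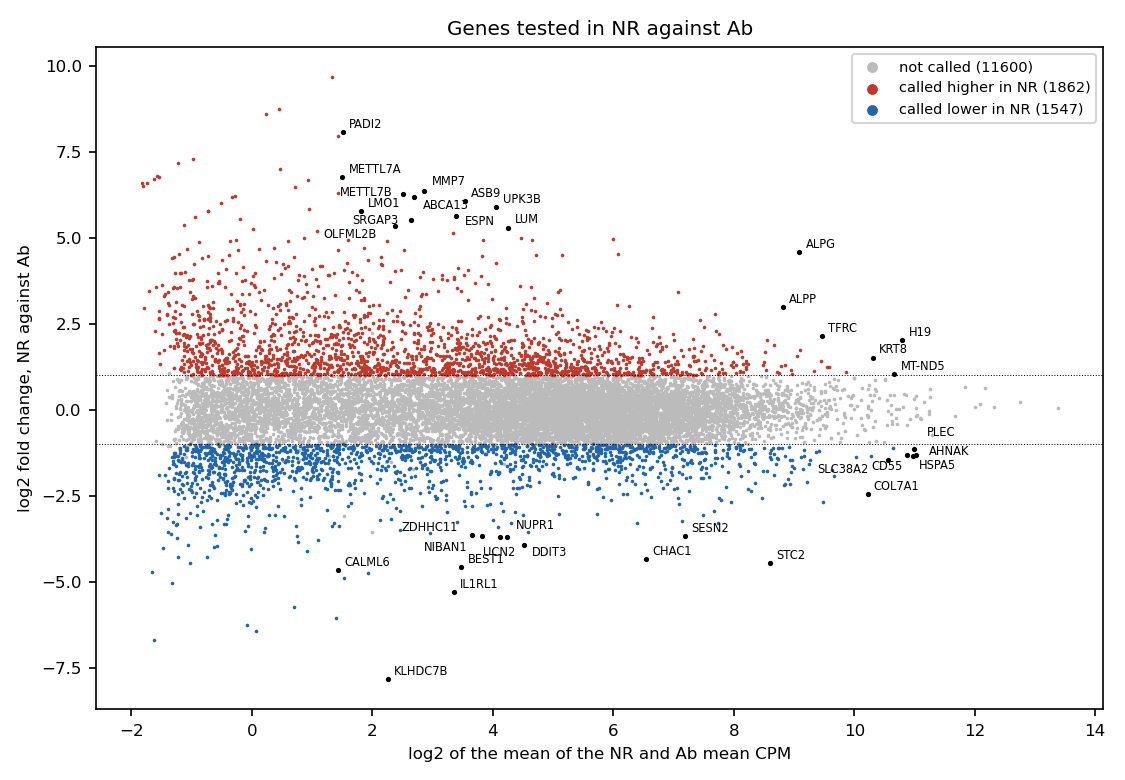
Each point is a gene tested in NR against Ab, with its mean level (log2 of CPM) on the horizontal axis and its log2 fold change on the vertical axis. Red points are the 1862 genes called higher in NR, blue points the 1547 called lower and grey points the rest, dotted lines mark 2-fold, and the black labelled genes are those with the largest changes in fold or in CPM by the naming rule, with falls in STC2, CHAC1 and COL7A1 and rises in MMP7, ALPG, TFRC and H19.

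Calls leaned in different directions by kind of gene. Among 12132 protein-coding genes 1554 were called higher and 1021 lower, whereas among 1468 long noncoding RNAs 193 were called higher and 332 lower (median log2 fold change -0.22). The host genes of small nucleolar RNAs (SNHG names) had 9 of 20 members lower and none higher, with a median of -0.84. Host genes of microRNAs had 9 of 24 lower and none higher, and annotated microRNA genes, whose reads in a poly-A library come from precursor or host transcripts, had 8 of 21 lower and none higher. Genes named LINC were called often in both directions, with 44 of 203 higher (21.7%) and 33 lower (16.3%). On chromosome 16, 18.1% of 742 genes were called lower and 9.16% higher, and on chromosome X 6.56% of 503 were lower and 14.5% higher. Calls were also more frequent at low abundance: 20.9% of the quintile of genes with the lowest level were called higher and 18.4% lower, against 5.6% and 7.79% in the highest quintile. By GC content of the exons, 15% were called in each direction in the richest quintile, and 9.01% higher and 8.03% lower in the poorest.

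**Figure D2:**
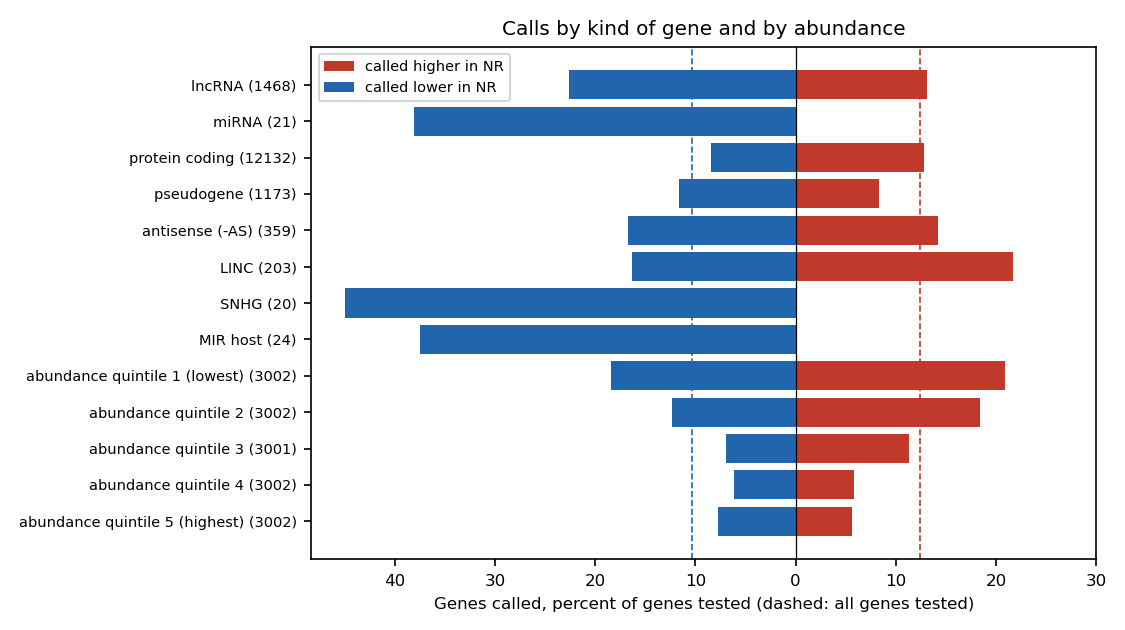
Bars give the percent of tested genes called higher (red, right) or lower (blue, left) in NR by kind of gene, by class of long noncoding RNA and by quintile of abundance, with the number tested in brackets and dashed lines for all genes (12.4% higher, 10.3% lower). SNHG and microRNA host genes have bars on the lower side only, and both bars shorten from the lowest abundance quintile to the fourth.

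Sequence windows from the promoters of genes on both sides of the comparison are shown next, because 2 lists described below, the ATF4 targets (mostly lower) and the interferon-stimulated genes (mostly higher), are each known by a short element that their factors bind. Promoters were RefSeq windows on GRCh38.p14 from 250 bases before to 50 bases after each gene's start, and 10511 of the 15009 tested genes had one. The letters TTNCATCA, the core of the composite ATF4 and CHOP element, were searched on both strands. They occurred in 1.71% of promoters of tested genes and 3.62% of all 35116 promoters. Among ATF4 targets 9 of 38 promoters held them (23.7%), and among the genes of that list called lower 7 of 31 did (22.6%). The windows below are examples with the element in capitals and up to 30 bases on each side, given 5′ to 3′ on the gene's strand. FGF21, ATF3 and AARS1 were chosen after their values were seen. FGF21 encodes a secreted hormone, CHAC1 an enzyme that degrades glutathione, ASNS asparagine synthetase, ATF3 a stress transcription factor (log2 change -1.57) and AARS1 the alanyl-tRNA synthetase (-1.33).
FGF21, chr19:48755440-48755507, + strand: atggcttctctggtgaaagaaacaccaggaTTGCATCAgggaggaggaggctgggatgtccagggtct
CHAC1, chr15:40953232-40953299, + strand: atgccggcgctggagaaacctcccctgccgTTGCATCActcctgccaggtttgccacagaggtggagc
ASNS, chr7:97872439-97872506, - strand: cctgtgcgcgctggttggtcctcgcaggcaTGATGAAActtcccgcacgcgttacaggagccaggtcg
ATF3, chr1:212565186-212565253, + strand: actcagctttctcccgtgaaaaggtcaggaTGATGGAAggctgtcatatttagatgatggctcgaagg
AARS1, chr16:70289656-70289723, - strand: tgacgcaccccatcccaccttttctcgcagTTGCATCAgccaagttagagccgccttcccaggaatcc

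The interferon-stimulated response element was searched on both strands as GAAA, 2 bases of any kind and GAAA, and occurred in 2.61% of promoters of tested genes and 3.57% of all promoters. Among interferon-stimulated genes 25 of 38 promoters held it (65.8%), including 14 of 19 of the genes called higher (73.7%) and none of the 3 called lower. The windows below, again on GRCh38.p14, belong to genes called higher in NR, with the matches in capitals. IFITM1 has a further match in its promoter that is not shown. IFI6 and the IFITM genes encode small membrane proteins induced by interferon, IFIT1 an RNA-binding antiviral protein, and IFI44 a cytoplasmic interferon-induced protein. IFI44, IFITM1 and IFITM3 were chosen after their values were seen. A match is a run of letters in a window and not a measured binding site.
IFI6, chr1:27672246-27672378, - strand: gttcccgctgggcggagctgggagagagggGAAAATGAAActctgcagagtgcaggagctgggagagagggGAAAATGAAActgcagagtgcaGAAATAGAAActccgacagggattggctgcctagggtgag
IFIT1, chr10:89392477-89392559, + strand: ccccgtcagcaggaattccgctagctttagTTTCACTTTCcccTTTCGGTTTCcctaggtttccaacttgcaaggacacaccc
IFI44, chr1:78649741-78649788, + strand: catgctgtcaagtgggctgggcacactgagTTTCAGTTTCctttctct
IFITM1, chr11:313970-314039, + strand: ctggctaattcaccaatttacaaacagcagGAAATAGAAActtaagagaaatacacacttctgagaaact
IFITM3, chr11:320861-320942, - strand: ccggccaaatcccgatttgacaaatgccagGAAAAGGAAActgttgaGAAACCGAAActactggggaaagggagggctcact

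Genes induced by ATF4 were lower in NR almost throughout. Of 44 targets 37 were called lower and none higher, 42 passed the adjusted p on the lower side, and the median log2 fold change was -1.63, against 10.3% called lower and a median of -0.005 over all genes. Of these 44 genes 30 also stand in other lists used here. STC2, a secreted glycoprotein induced by endoplasmic reticulum stress (GRCh37 chr5:172741726-172755450), gave 925, 488 and 495 counts in NR and 14380, 19292 and 15294 in Ab. The groups lay far apart, at 33.9 ± 2.64 CPM in NR and 743 ± 4.58 CPM in Ab, a log2 change of -4.45 (SE 0.05, adjusted p = 5.9e-30). CHAC1 (GRCh37 chr15:41245160-41248710) gave 216, 131 and 136 counts in NR and 3616, 4540 and 3551 in Ab, a log2 change of -4.35 (SE 0.07, adjusted p = 2.27e-27). SESN2, a stress-induced brake on mTORC1 (GRCh37 chr1:28586029-28609002), gave 565, 298 and 318 counts in NR and 5491, 6770 and 5543 in Ab, a log2 change of -3.68 (SE 0.06, adjusted p = 2.27e-27). None of these genes overlapped between the groups. DDIT3, the factor CHOP, fell by 3.94 on the log2 scale, from 42.9 ± 2.56 to 2.75 ± 0.492 CPM, but 39.63% of its exon bases are shared with another annotated gene and the strand setting of the counting is not stated. PPP1R15A, the phosphatase subunit GADD34 that reverses the stress response, had a log2 fold change of -2.95, TRIB3 of -2.31 and ATF4 itself of -1.36 (these 3 were chosen after their values were seen). FGF21 gave 1, 0 and 0 counts in NR and 37, 49 and 51 in Ab, so Ab exceeded NR by a ratio of 116 with a 95% counting interval from 20.5 to 4614.

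Genes of amino acid supply made up much of that list. Among 22 genes of serine, glycine and asparagine synthesis 11 were called lower (50%) and 1 higher (4.55%), against 10.3% and 12.4% of all genes. The median of this list was -1.05. PSAT1, the aminotransferase of serine synthesis, gave 5778, 3110 and 3595 counts in NR and 18906, 25192 and 19643 in Ab, a log2 fold change of -2.11 without overlap. PHGDH, which starts that pathway, had a log2 fold change of -1.41, PSPH, which ends it, of -1.58, and SHMT2, which makes glycine from serine in mitochondria, of -1.57 (chosen after their values were seen). ASNS fell by 2.57 on the log2 scale, with 49.33% of its exon bases shared with another gene. Several amino acid carriers also fell, within a solute carrier list that moved both ways: the neutral amino acid transporter SLC38A2 fell from 2217 ± 152 to 798 ± 36.8 CPM (log2 -1.47), the glycine transporter SLC6A9 from 279 ± 18.4 to 70.6 ± 1.54 CPM (-1.98), and the cystine carrier SLC7A11 from 99.8 ± 7.38 to 37 ± 1.97 CPM (-1.43). SLC1A5, a glutamine carrier, had -2.20 with 23.83% of its exon bases shared. Of 39 tRNA synthetases 8 were called lower (20.5%) and 2 higher (5.13%), with a median of -0.04. Those called lower included GARS1 for glycine (1292 ± 15.5 to 337 ± 11.3 CPM, log2 -1.93), CARS1 for cysteine (-1.98) and WARS1 for tryptophan (-2.37, 10.57% of exon bases shared). Promoters with TTNCATCA were found for 7 of 31 synthetases (22.6%) and for 4 of the 7 called lower (57.1%).

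Genes of the unfolded protein response were called at shares near or under those of all genes. Of 41 genes 5 were called lower (12.2%, against 10.3%) and 3 higher (7.32%, against 12.4%), although 26 passed the adjusted p on the lower side and 10 on the higher, and the median was -0.22. HSPA5, the chaperone BiP and the usual sensor gene of endoplasmic reticulum stress, gave 27578, 14926 and 17399 counts in NR and 49902, 70438 and 56030 in Ab. It fell from 2672 ± 64.6 to 1075 ± 9.76 CPM (log2 -1.31, SE 0.04, adjusted p = 7.93e-22). HERPUD1, part of the degradation complex of the endoplasmic reticulum, had -1.97 and the co-chaperone DNAJB9 had -1.67. In the other direction, the chaperone calreticulin (CALR) rose by 1.13 and SDF2L1, a luminal chaperone component, by 1.37 on the log2 scale. XBP1, the factor spliced by IRE1, had a log2 fold change of -0.43 and was not called (chosen after its values were seen). Of 27 heat shock genes 3 were called higher (11.1%) and 1 lower (3.7%), at or under the shares of all genes, with a median of 0.04. Single members that rose were HSPB1, a small heat shock protein, by 1.84 and HSPA2 by 3.48.

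**Figure D3:**
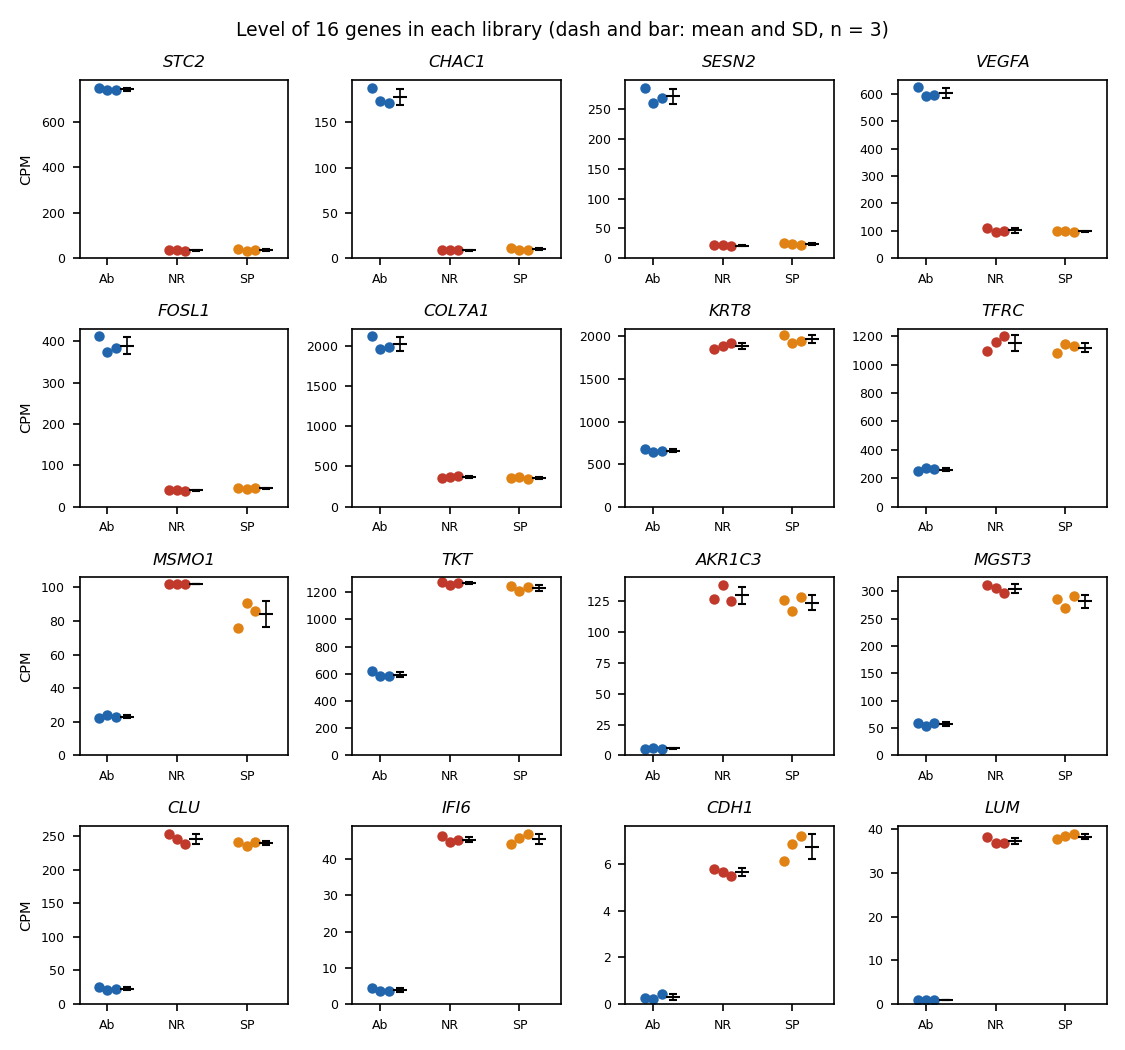
Each panel shows the TMM-scaled CPM of 1 gene in the 3 Ab (blue), 3 NR (red) and 3 SP (orange) libraries, with the mean and SD (n = 3) beside the points and a linear axis from 0. In all 16 panels the NR points lie apart from the Ab points, and the SP points lie near the NR points.

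Many genes read by growth factor signaling were lower as well. Of 19 genes of the ERK feedback list 12 were called lower (63.2%) and 2 higher (10.5%, median -1.37). Of 31 AP-1 and immediate early genes 13 were called lower (41.9%) and 3 higher (9.68%, median -0.79). These shares stand beside 10.3% called lower and 12.4% higher over all genes. FOSL1, the AP-1 subunit FRA1 that follows sustained ERK activity (GRCh37 chr11:65659520-65668044), gave 1058, 547 and 605 counts in NR and 7916, 9750 and 7897 in Ab. It fell from 390 ± 19.9 to 39.3 ± 1.6 CPM, a log2 change of -3.30 (SE 0.05, adjusted p = 3.23e-27), with no overlap. The ERK phosphatases DUSP4 and DUSP5 had -2.25 and -1.84, PHLDA1 had -2.56, and the inhibitor SPRY2 had -1.34 (chosen after its values were seen). The 3 genes of the AP-1 and immediate early list called higher were EGR1, FOS and BTG2. EGR1 rose from 12.6 ± 0.906 to 39.6 ± 3.36 CPM (log2 1.66), FOS from 6.78 ± 0.255 to 20.8 ± 0.331 CPM (1.61), and the antiproliferative gene BTG2 from 8.19 ± 0.349 to 28 ± 1.28 CPM (1.78).

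Secreted growth factors followed. Of 23 tested 11 were called lower (47.8%) and 3 higher (13%), against 10.3% and 12.4% of all genes. The median was -0.88, and STC2, FGF21 and GDF15 among the 23 are also ATF4 targets. VEGFA, the ligand of the receptor that ramucirumab blocks (GRCh37 chr6:43737921-43754224), gave 2869, 1314 and 1603 counts in NR and 11978, 15457 and 12262 in Ab. The level was 102 ± 8.51 CPM in NR and 604 ± 17.3 CPM in Ab, a log2 change of -2.56 (SE 0.05, adjusted p = 1.74e-24). GDF15, a stress-induced cytokine, had -2.36, and LIF, AREG and EREG, a cytokine of the interleukin-6 family and 2 ligands of the EGF receptor, had -2.29, -2.16 and -1.54 (the last 3 chosen after their values were seen). The interleukin-6 family cytokine IL11 had -2.58, and FST, which binds activin, had -3.29. Among the 3 that rose, NRG4, a ligand of ERBB4, had 2.40 with 38.21% of its exon bases shared. The other two, chosen after their values were seen, were MDK, the growth factor midkine, with 71, 35 and 49 counts in NR and 1, 1 and 8 in Ab, and PDGFD, a ligand of PDGFRB, with 35, 28 and 24 against 0, 3 and 0. Receptors were called at shares near the background, 3 of 25 higher (12%, against 12.4%) and 4 lower (16%, against 10.3%). Single members moved both ways: AXL had -1.52 and EPHA2 -1.45, whereas FGFR4 had 2.49 and PDGFRB, also a fibroblast marker, 4.65.

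Lists that share some of these genes had medians closer to 0. Of 33 hypoxia targets 8 were called lower (24.2%) and 1 higher (3.03%), against 10.3% and 12.4% of all genes. The median was -0.27, and 20 of the list's genes stand in other lists. Of 29 YAP and TEAD targets 9 were called lower (31%) and 1 higher (3.45%, median -0.09). Among the 9 were AMOTL2, a junction scaffold (766 ± 16.8 to 190 ± 5.57 CPM, log2 -2.01), and F3, tissue factor (-2.28). The standard readouts CCN1 and CCN2 had -0.65 and -0.08 and were not called (chosen after their values were seen). Of 34 p53 targets 10 were called lower (29.4%) and 6 higher (17.6%). CDKN1A, the cell cycle inhibitor p21, had -1.15 (chosen after its values were seen). Of 41 BCL2 family and caspase genes 5 were called higher and 3 lower, a share near the background, with a median of 0.01. PMAIP1, the BH3-only protein NOXA, fell by 1.71 on the log2 scale.

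Several transcription factor families leaned downward, although most members of each were not called. Among 427 C2H2 zinc finger genes 64 were called lower (15%) and 9 higher (2.11%), against 10.3% and 12.4% of all genes. On the lower side 246 passed the adjusted p, against 58 on the higher, and the median was -0.39. Changes in single members were mostly small, with ZNF841 at -1.95 and ZNF354A at -1.99 (19.07% of exon bases shared) among the largest falls. ZNF488 ran against the family and rose from 1.43 ± 0.176 to 21.5 ± 0.988 CPM (log2 3.92). Of 27 HOX genes 7 were called lower (25.9%) and 1 higher (3.7%), with a median of -0.66. HOXB9 had -1.94 and HOXA5 -1.55, and HOXB13, the most 5′ gene of its cluster, rose by 1.75. Of 46 KLF, SOX and FOX genes 13 were called lower (28.3%) and 3 higher (6.52%), with a median of -0.48. Those called lower included FOXQ1 (-1.90) and KLF4 (-1.69, chosen after its values were seen).

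Nuclear receptors were called at a share near the background and chromatin modifiers at a lower one, and both held some large changes. Of 32 nuclear receptors 5 were called higher and 4 lower. NR1D2 and NR1D1, the REV-ERB repressors of clock genes, had -1.73 and -2.26, the latter with 17.98% of its exon bases shared. Of 100 chromatin modifiers 4 were called higher and 7 lower, with ARID5B rising from 5.72 ± 0.828 to 62.1 ± 3.82 CPM (3.42) and the histone demethylase gene KDM7A falling by 2.26. Of 42 histone genes 5 were called lower (11.9%, near the 10.3% of all genes) and 1 higher (2.38%, against 12.4%). A poly-A library holds few replication-dependent histone transcripts. Among SNHG-type host genes, GAS5 had 192 ± 5.66 CPM in NR and 1231 ± 47.5 CPM in Ab (log2 -2.68) and SNHG1 had 43.4 ± 2.97 and 213 ± 2.4 CPM (-2.29), both chosen after their values were seen.

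**Figure D4:**
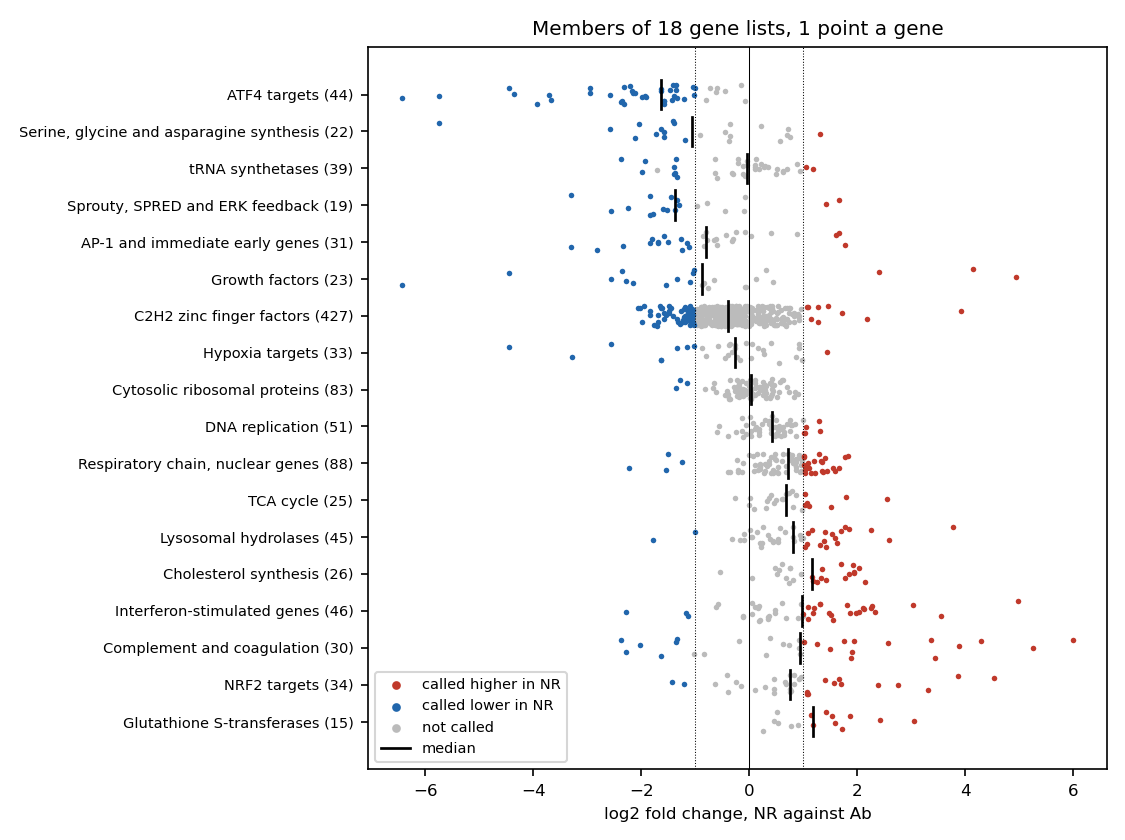
Each point is 1 tested member of 18 gene lists, placed by its log2 fold change in NR against Ab, with red for called higher, blue for called lower, grey for not called, a black bar at the list's median and dotted lines at 2-fold. ATF4 targets lie wholly left of 0, glutathione S-transferases wholly right of it, and cytosolic ribosomal proteins gather around 0.

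Cholesterol synthesis rose. Of 26 genes 14 were called higher (53.8%) and none lower, against 12.4% and 10.3% of all genes. On the higher side 24 passed the adjusted p and 1 on the lower, and the median was 1.17. MSMO1, a sterol methyl oxidase, rose without overlap between the groups from 23.1 ± 0.944 to 102 ± 0.0827 CPM (2.15) and MVK, mevalonate kinase, from 10.2 ± 0.885 to 39.5 ± 2.83 CPM (1.95). The sterol element TCACNCCAC was in 1 of 19 promoters of the list and 1.02% of those tested. It was in none of the 10 promoters of list members called higher. The letters CCAAT were in 15 of 19 (78.9%) against 36.7%. In fatty acid synthesis 5 of 21 genes were called higher (23.8%) and 1 lower (4.76%, median 0.52). FASN, fatty acid synthase, had 1.17, ELOVL5, an elongase, 1.07, DGAT2, which makes triglyceride, 2.09, and the sugar-responsive factor MLXIPL -3.06.

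Many genes of mitochondrial metabolism rose by smaller steps, although most members of each list below were not called. Over all genes 12.4% were called higher and 10.3% lower. Among 28 genes of fatty acid oxidation and PPAR targets 11 were called higher (39.3%) and none lower (median 0.91). Among 25 of the TCA cycle 7 were higher (28%) and none lower (0.69). Among 88 nuclear genes of the respiratory chain 25 were higher (28.4%) and 4 lower (4.55%, median 0.72). In the last list 72 genes passed the adjusted p on the higher side and 8 on the lower. UCP2, a carrier of the inner membrane, rose from 15.6 ± 0.938 to 78 ± 1.77 CPM (2.33) and DECR1, which processes unsaturated fatty acids, by 1.37. IDH2, the mitochondrial isocitrate dehydrogenase that makes NADPH, rose from 16.3 ± 1.08 to 95 ± 3.22 CPM (2.55), and pyruvate carboxylase (PC) from 72.6 ± 4.26 to 250 ± 3.07 CPM (1.79). The ATP synthase gene ATP5MC1 had 1.83 and the complex I gene NDUFA1 1.67. Of the 13 protein genes of the mitochondrial genome 2 were called higher (15.4%), a share near the 12.4% of all genes: MT-ND5 gave 57519, 28981 and 35874 counts in NR and 21695, 27430 and 21338 in Ab (log2 1.03), and MT-ND6 had 1.18. On adjusted p alone 8 of the 13 were higher and none lower, against 5457 and 5459 of all 15009 genes, and their median was 0.46.

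Single genes of sugar metabolism moved in both directions. The shares called over all genes were 12.4% higher and 10.3% lower. Of 9 genes of the pentose phosphate pathway 2 were called higher and none lower (median 0.47), and transketolase (TKT), of its non-oxidative branch, rose from 594 ± 21.7 to 1265 ± 9.19 CPM (log2 1.09). Among 23 glycolysis genes 5 were called higher and 2 lower (median 0.33). PFKFB4, which sets the level of fructose-2,6-bisphosphate, fell from 153 ± 10.9 to 15.6 ± 0.613 CPM (-3.28) and hexokinase HK2 by 1.15, whereas ALDOC, an aldolase, rose by 2.59 with 11.33% of its exon bases shared. GAPDH, often used as a reference gene, had 1693 ± 8.34 CPM in NR and 919 ± 33 CPM in Ab, a log2 change of 0.88 that passed the adjusted p but not 2-fold, while ACTB had 0.07 (adjusted p = 0.0772).

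Among detoxifying enzymes, glutathione S-transferases and aldo-keto reductases rose, and other families were mixed. For comparison, 12.4% of all genes were called higher and 10.3% lower. All 15 tested glutathione S-transferase genes, of 20 in the list, passed the adjusted p on the higher side, 9 were called higher and none lower, and the median was 1.18. MGST3, a microsomal member, rose from 57.3 ± 2.98 to 305 ± 7.71 CPM (2.42), GSTM4 by 1.87 and GSTA4 by 3.06. Of 9 aldo-keto reductases 6 were called higher and 1 lower (median 1.67). AKR1C3, which reduces steroid and prostaglandin ketones (GRCh37 chr10:5077546-5149878), gave 3277, 1919 and 2006 counts in NR and 100, 158 and 113 in Ab. At 130 ± 6.8 against 5.58 ± 0.437 CPM its log2 change was 4.53 (SE 0.08, adjusted p = 4.19e-27), and AKR1C2 and AKR1C1 had 3.87 and 3.31, although these paralogs are near-identical and the division of reads among them is uncertain. Of 15 aldehyde dehydrogenases 5 were called higher and 1 lower, with ALDH3A1 rising by 4.07. Of 17 cytochromes P450 5 were called higher and 5 lower (median -0.11), and of 4 UGT and SULT conjugating enzymes 1 was called in each direction (median -0.20).

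NRF2 targets overlapped with these enzymes, 20 of the list's genes standing elsewhere too. Of 34 tested 12 were called higher (35.3%) and 2 lower (5.88%), against 12.4% and 10.3% of all genes, with a median of 0.76. Besides the AKR1C genes, the quinone reductase NQO1 had 1.58 (19.35% of exon bases shared), while the heme oxygenase gene HMOX1 had 0.84 and the glutathione synthesis gene GCLM 0.30 and were not called (all chosen after their values were seen). SLC7A11 fell, as given above. Catalase (CAT) rose from 25.4 ± 1.76 to 96.8 ± 2.62 CPM (1.93). Of 16 peroxidase and superoxide dismutase genes 3 were called higher (18.8%) and 1 lower (6.25%), not far from the shares of all genes. The letters TGACNNNGC of the antioxidant element were in 6 of 25 promoters of NRF2 targets (24%) and 15.5% of those tested. Only 2 of 11 metallothionein genes passed the filter, and MT1E, which binds zinc and copper and has close paralogs, rose by 1.93.

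Iron handling and membrane transport genes were also examined. Of 22 iron genes 6 were called higher (27.3%, against 12.4% of all genes) and 1 lower (4.55%, against 10.3%), with a median of 0.50. TFRC, the transferrin receptor (GRCh37 chr3:195739382-195809024), gave 28246, 16119 and 19242 counts in NR and 4805, 7016 and 5430 in Ab, a log2 change of 2.14 (SE 0.05, adjusted p = 5.59e-25). The ferric reductases STEAP4 and CYBRD1 rose from 7.24 ± 0.457 to 47.7 ± 2.15 CPM and from 13 ± 1.01 to 55.3 ± 2.78 CPM, the mitochondrial iron importer SLC25A37 fell by 1.47, and the ferritin light chain gene FTL had 0.75 and was not called (chosen after its values were seen). Of 202 solute carriers 35 were called higher (17.3%) and 28 lower (13.9%), against 12.4% and 10.3% of all genes, with a median of 0.08. SLC12A3, a sodium and chloride cotransporter (GRCh37 chr16:56899119-56949762), gave 3121, 1711 and 2053 counts in NR and 84, 81 and 94 in Ab, with a log2 change of 4.97 (SE 0.09, adjusted p = 4.12e-26). The fructose carrier SLC2A5 rose by 4.21. Of 26 ABC transporters 6 were called higher and none lower, among them the cholesterol exporter ABCA1 (1.81) and ABCA13, which gave 274, 199 and 215 counts in NR and 4, 7 and 0 in Ab.

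Interferon-stimulated genes rose in part. Of 46 tested 22 were called higher (47.8%) and 3 lower (6.52%), against 12.4% and 10.3% of all genes. On the higher side 33 passed the adjusted p and 5 on the lower, and the median was 0.98. IFI6 (GRCh37 chr1:27992575-27998723) gave 1197, 626 and 724 counts in NR and 87, 94 and 73 in Ab, a log2 change of 3.56 (SE 0.10, adjusted p = 1.27e-22) without overlap, with 23.08% of its exon bases shared with another gene. IFIT1 rose from 3.45 ± 0.386 to 17.4 ± 1.08 CPM (2.34) and SAMD9L, an antiviral restriction factor, from 0.934 ± 0.199 to 7.67 ± 0.673 CPM (3.04). IFI44 had 2.27, IFITM3 2.11 and IFITM1 2.12, the IFITM genes being close paralogs with 16.32% and 31.63% of exon bases shared, and ISG15, a ubiquitin-like modifier, had 1.31 (chosen after its values were seen). The canonical antiviral gene MX1 had 0.48 and was not called (chosen after its values were seen). TRIM25, a ubiquitin ligase of RNA sensing, fell by 1.17 and IFI16, a DNA sensor, by 1.13, and the third gene called lower was IRF9, at 0.147 ± 0.0949 CPM in NR and 0.656 ± 0.244 CPM in Ab, a ratio of Ab to NR of 5.08 with a counting interval from 2.26 to 13.4 and 27.15% of its exon bases shared (chosen after its values were seen).

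Antigen presentation and inflammatory genes changed singly. Of 22 MHC class I presentation genes 5 were called higher (22.7%) and 1 lower (4.55%), against 12.4% and 10.3% of all genes. The median was 0.05. The proteasome activators PSME1 and PSME2 rose by 1.11 and 1.10, and PSMB10, an immunoproteasome subunit, had 2.38 with 39.36% of its exon bases shared. B2M had 0.62 and was not called (chosen after its values were seen). NF-kB targets were mixed, 9 of 31 higher (29%) and 7 lower (22.6%, median -0.09). Of 8 chemokine genes that could be tested, out of 41, 5 were called higher (62.5%) and 2 lower (25%). CXCL8, a neutrophil attractant, rose from 14.5 ± 0.926 to 44.8 ± 2.9 CPM (1.63), while CXCL2 fell from 14.2 ± 1.95 to 3.4 ± 0.822 CPM. IL1RL1, the receptor of interleukin-33 (GRCh37 chr2:102927962-102968497), gave 20, 3 and 5 counts in NR and 397, 478 and 430 in Ab, a log2 change of -5.30 (SE 0.20, adjusted p = 1.05e-18).

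Complement and coagulation genes moved in both directions, with 14 of 30 called higher and 6 lower (median 0.93), against 12.4% and 10.3% of all genes. CLU, the secreted chaperone clusterin, gave 6574, 3423 and 3807 counts in NR and 484, 547 and 456 in Ab, rising from 22.8 ± 2.18 to 246 ± 8.42 CPM (log2 3.44, SE 0.06, adjusted p = 1.15e-26). The first-component protease C1S rose by 3.89 and complement C3 by 1.90 (11.72% of exon bases shared), and vitronectin (VTN), which binds both systems, by 3.38 (17.28% shared). CD55, which speeds the decay of complement convertases, fell from 2888 ± 170 to 1147 ± 43.7 CPM (-1.33). PLAU, the urokinase that activates plasminogen, fell by 2.03 with 31.03% of its exon bases shared. VWF, also an endothelial marker, gave 34, 21 and 21 counts in NR and 0, 0 and 1 in Ab.

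Several epithelial adhesion genes rose, CDH1 and EPCAM from low levels. CDH1, E-cadherin (GRCh37 chr16:68771195-68869440), gave 150, 79 and 88 counts in NR and 5, 5 and 9 in Ab, or 5.65 against 0.296 CPM, a log2 change of 4.27 (SE 0.27, adjusted p = 3.24e-14). EPCAM, an epithelial adhesion molecule, rose from 1.62 ± 0.0972 to 5.19 ± 1.14 CPM (1.68). Of 25 cadherins and protocadherins 9 were called higher (36%, against 12.4% of all genes) and none lower (against 10.3%). Among the 9 was CDH5, an endothelial marker, at 21 ± 1.1 CPM in NR and 4.15 ± 0.82 CPM in Ab. Of 11 claudin and tight junction genes 2 were called higher and 2 lower (median -0.15). Of 23 tetraspanins 9 were higher and none lower (median 0.73), with CD82, which is linked to restrained migration, at 2.54. KRT8 (GRCh37 chr12:53290971-53343738) gave 47765, 26242 and 30817 counts in NR and 13029, 16763 and 13491 in Ab, a log2 change of 1.52 (SE 0.04, adjusted p = 6.29e-23), and its partner KRT18 had 0.57. Of 11 keratins 6 were called lower and KRT8 alone higher (median -1.12), with KRT80 falling from 1228 ± 45.1 to 361 ± 8.22 CPM. Of 8 mucins 3 rose and 3 fell, among them the transmembrane mucins MUC1 (1.86) and MUC13 (1.25) on one side and the gel-forming gastric mucin MUC5AC (-2.15) on the other. Of 19 mesenchymal genes 2 were called higher (10.5%) and 3 lower (15.8%), not far from the shares of all genes. The median was -0.26.

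Matrix genes split between a few large rises and one abundant fall. COL7A1, the anchoring fibril collagen (GRCh37 chr3:48601506-48632762), gave 9130, 5101 and 6053 counts in NR and 40768, 50867 and 41013 in Ab, falling from 2021 ± 90 to 366 ± 12.2 CPM (log2 -2.46, SE 0.04, adjusted p = 1.59e-26). Of 34 laminin and collagen genes 8 were called higher (23.5%) and 3 lower (8.82%), against 12.4% and 10.3% of all genes. The small proteoglycan LUM (GRCh37 chr12:91496406-91505271) gave 986, 514 and 590 counts in NR and 18, 24 and 20 in Ab, a log2 change of 5.30 (SE 0.12, adjusted p = 4.73e-24), and DCN had 5.14. Both are fibroblast markers, and the levels of that whole list are given above. Of 32 metalloproteinases and inhibitors 10 were called higher and 2 lower (median 0.54). MMP7, matrilysin, a protease made by epithelial cells (GRCh37 chr11:102391239-102401481), gave 350, 194 and 249 counts in NR and 4, 4 and 3 in Ab, a log2 change of 6.37 (SE 0.23, adjusted p = 6.39e-20), and MMP28 had 4.04.

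Lysosomal and trafficking lists are set beside the 12.4% called higher and 10.3% called lower over all genes. Of 45 lysosomal hydrolase genes 17 were called higher (37.8%) and 2 lower (4.44%, median 0.81), with the cathepsins CTSV (3.77) and CTSF (2.25) and the ganglioside activator GM2A (2.59) among the rises. Of 19 V-ATPase subunits 3 were called higher (15.8%, near the background) and none lower (median 0.14), of 44 autophagy genes none was higher and 4 were lower (median -0.06), of 47 RAB GTPases 6 were higher (12.8%, near the background) and 2 lower (4.26%), and of 37 SNAREs 2 moved each way. The lysosomal element TCACGTGA was in 4 of 30 hydrolase promoters (13.3%) and 1.9% of those tested.

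The core machinery and cell cycle lists below were called at shares under those of all genes (12.4% higher and 10.3% lower). The tRNA synthetases, given above, were called lower more often (20.5%). No cytosolic ribosomal protein gene of 83 was called higher and 3 were called lower (median 0.04), of 44 spliceosome genes 1 was higher and 2 lower, of 44 proteasome genes 3 were higher and none lower, and of 56 ribosome biogenesis genes 1 was higher and 4 lower, with 39 past the adjusted p on the lower side (median -0.34). Of 51 DNA replication genes 5 were called higher (9.8%, under the 12.4% of all genes) and none lower, while 37 passed the adjusted p on the higher side, against 5457 of all 15009 genes, and the median was 0.43. Of 52 mitosis genes 5 were called higher (9.62%, likewise under the share of all genes) and none lower, 31 passed the adjusted p on the higher side, and the median was 0.34. RRM1, a subunit of ribonucleotide reductase, rose from 208 ± 12.2 to 511 ± 5.33 CPM, thymidine kinase TK1 from 40.8 ± 2.94 to 115 ± 2.23 CPM, and the mitotic kinesin KIF20A from 32.3 ± 1.91 to 168 ± 3.35 CPM (2.38). The proliferation markers PCNA and MKI67 had 0.70 and 0.01 and were not called (chosen after their values were seen). The E2F element TTTGGCGC was in 9 of 44 replication promoters (20.5%) and 1.08% of those tested.

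**Figure D5:**
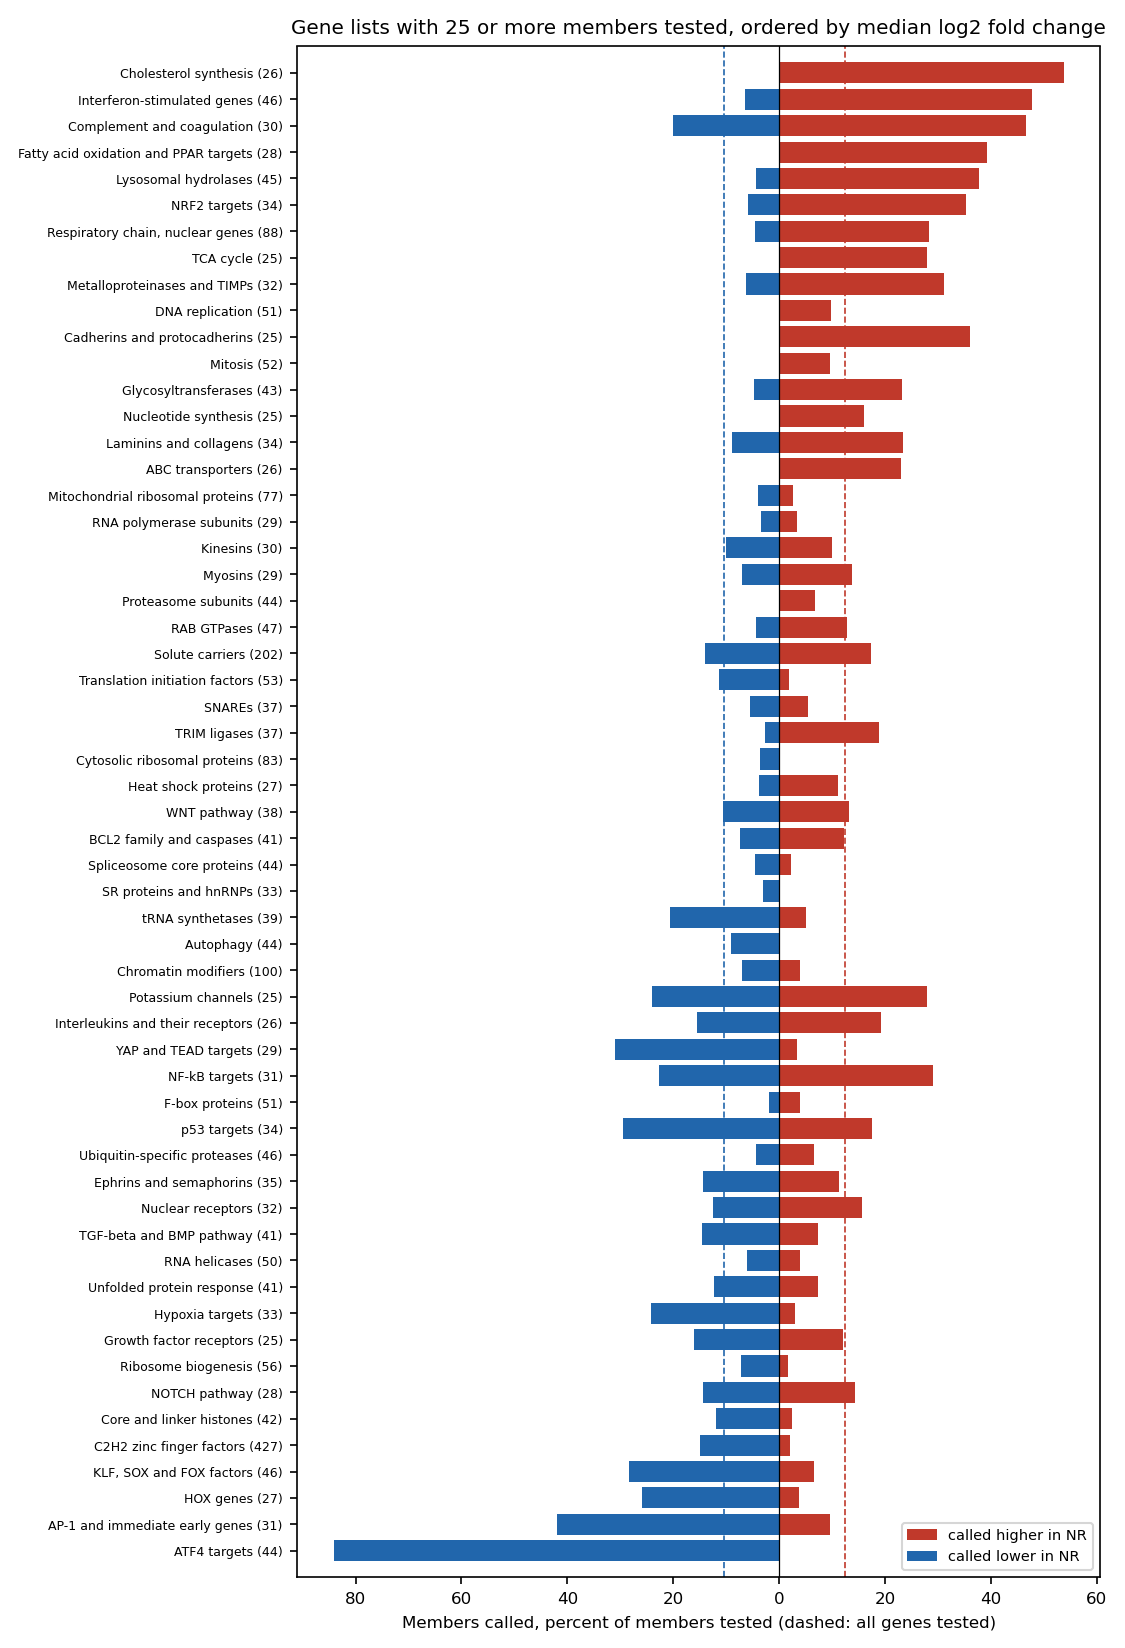
Bars give the percent of tested members called higher (red, right) or lower (blue, left) in NR for gene lists with 25 or more tested members, ordered by median log2 fold change, with the number tested in brackets. Dashed lines mark all genes (12.4% higher, 10.3% lower); cholesterol synthesis and interferon-stimulated genes reach farthest to the right and ATF4 targets farthest to the left.

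Several single genes outside these families were among the 12 most raised or 12 most lowered protein-coding genes under the naming rule, which left out genes with fewer than 100 counts on average where higher and genes whose groups overlapped. PADI2, which converts protein arginine to citrulline (GRCh37 chr1:17393256-17445946), gave 158, 79 and 85 counts in NR and 0, 1 and 0 in Ab, a ratio of 380 with a 95% counting interval from 67.8 to 15071. METTL7A, a lipid droplet methyltransferase gene, had 140, 91 and 79 counts against 0, 2 and 1, a ratio of 122 (41.4 to 595), with 18.87% of its exon bases shared, and METTL7B had a log2 fold change of 6.29. UPK3B, a uroplakin of mesothelium and urothelium, had 5.89, LMO1, a LIM-domain transcriptional cofactor, 5.79, and ESPN, an actin bundler of microvilli, 5.63. In the other direction KLHDC7B (GRCh37 chr22:50984328-50989452) gave 1, 1 and 0 counts in NR and 189, 276 and 168 in Ab, Ab exceeding NR by a ratio of 268 (73.9 to 2217). These intervals cover counting error only.

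Gains and losses in CPM were also ranked among called genes. H19, an imprinted long noncoding RNA (GRCh37 chr11:2016396-2025782), gave 73353, 39399 and 46293 counts in NR and 13991, 17709 and 14498 in Ab, rising from 704 ± 24.5 to 2851 ± 32.8 CPM (log2 2.02, SE 0.04, adjusted p = 1.4e-25). The placental-type alkaline phosphatase gene ALPG (GRCh37 chr2:233271554-233275424) had 25464, 15710 and 16305 counts against 890, 1072 and 877, a log2 fold change of 4.60, and its near-identical neighbor ALPP rose from 100 ± 7.74 to 797 ± 14.5 CPM, so the division of reads between them is uncertain. With KRT8, TFRC and MT-ND5, these made up the 6 largest gains in CPM among called genes. The 6 largest losses among called genes were in AHNAK, a large scaffold of the cell cortex (2978 ± 67.4 to 1209 ± 98.3 CPM), PLEC, the cytoskeletal linker plectin (2805 ± 155 to 1281 ± 93 CPM), CD55, COL7A1, HSPA5 and SLC38A2. Gains and losses in CPM grow with transcript length and are not comparable per molecule between genes.

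Noncoding genes named by the same rule included LINC01843, with 191, 97 and 117 counts in NR and 11, 10 and 2 in Ab (log2 4.35), LINC00324 with 2.82 and LINC00525 with 2.59. On the lower side RP11-495P10.8 gave 1, 2 and 1 counts in NR and 97, 149 and 100 in Ab, Ab exceeding NR by a ratio of 73.2 (28.3 to 270), with 15.83% of its exon bases shared, and LINC00304 had -4.90 with 29.66% shared.

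Values for spheres are placed beside those for rods without further reading, because both comparisons use the same Ab libraries. SP against Ab had 3502 of 15068 genes called (23.2%). The log2 fold changes of SP and NR against Ab were -4.40 and -4.45 for STC2, -2.62 and -2.56 for VEGFA, -3.13 and -3.30 for FOSL1, 1.87 and 2.15 for MSMO1, 4.47 and 4.53 for AKR1C3, 2.11 and 2.14 for TFRC, 3.57 and 3.56 for IFI6, and 4.52 and 4.27 for CDH1. List counts for SP were 36 ATF4 targets lower and none higher, 12 cholesterol genes higher and none lower, and 25 interferon-stimulated genes higher and 3 lower. Set directly against each other, NR and SP differed in 66 of 14903 genes on adjusted p alone (0.443%), a number that ran from 10 without NR library 2 to 188 without SP library 3. Of the 3409 genes called in NR against Ab, 3093 were tested there and 14 passed, all by less than 2-fold. They were higher in NR than in SP for the cholesterol genes MSMO1 (0.28), ACAT2 (0.29), FDPS (0.25) and TMEM97 (0.22), the last a sterol-regulated membrane protein, and lower for FN1 (-0.22), the endocytic receptor gene LRP1 (-0.27) and the myosin gene MYO18A (-0.25). ACAT1, NENF, OST4, PTMS, RPL7AP6, SLPI and ZFAS1 were the other 7, all higher in NR than in SP, by between 0.19 and 0.34 on the log2 scale.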

How the data were processed

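The authors sequenced poly-A RNA of SNU5 cells and deposited raw counts per Ensembl gene for 9 libraries. The submitters' processing notes name HISAT2 2.1.0 and DESeq2 1.16.1; the deposited tables hold counts only. The notes name build mm9 and the paper hg19, and the strand setting and annotation release are not given in the sources used here. Of 60880 IDs, 59858 matched GENCODE release 44 on GRCh37; the other 1022 took no more than 0.115% of any library.

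NR and Ab (3 libraries each) were compared with edgeR 4.0.16 (R 4.3.3) using filterByExpr (minimum count 10, total 15), TMM and glmQLFTest, called at an adjusted p under 0.05 and 2-fold. DESeq2 1.42.0 was an alternative. The procedure was tested on simulated data. Members, gene lists, tests and naming rule were chosen with earlier results of these data known. Named were the 12 most raised and 12 most lowered protein-coding genes (no overlap, mean of at least 100 counts), the 6 of each in CPM, up to 3 called members of each of 95 lists per direction (or its 2 members of smallest adjusted p where none was called), markers and receptor and reference genes, 5 noncoding genes per direction under the same conditions and genes past the adjusted p in NR against SP. Promoters were RefSeq windows (GRCh38.p14), searched for 12 motifs. Replicates of a group differed by 1.84 to 7.43 in chi-square per gene, so none was counted as a duplicate. Counting intervals are exact at 95%. Some named genes are withheld and not reported here.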

Additional observations from a re-analysis of the deposited data

Results flagged for a closer look

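The 14 genes below were called in NR against Ab and also differed between rods and spheres in the direct test of NR against SP (edgeR quasi-likelihood test, Benjamini-Hochberg adjusted), which is what set them apart. They were 14 of the 3093 called genes tested there, a share near the 0.443% of all genes (66 of 14903). The log2 differences, NR over SP, were 0.28 for MSMO1, 0.29 for ACAT2, 0.25 for FDPS and 0.22 for TMEM97, all sterol-related genes, and 0.21 for ACAT1, the mitochondrial acetyl-CoA acetyltransferase. The differences were 0.34 for NENF, 0.29 for OST4, 0.29 for the pseudogene RPL7AP6, 0.24 for SLPI, 0.22 for ZFAS1 and 0.19 for PTMS. Lower in NR than in SP were LRP1 (-0.27), MYO18A (-0.25) and FN1 (-0.22). Adjusted p ranged from 0.00875 for LRP1 to 0.0482 for ACAT1, with 3 libraries per group. The number of genes past the adjusted p in that comparison was unstable when single libraries were left out, as given under the dependence on processing.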

How the results depend on the processing

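The count of called genes in NR against Ab (3409) moved most with the fold rule: 2061 (1196 higher, 865 lower) when a fold above 2 was itself tested with glmTreat, 6348 (3323 and 3025) at 1.5-fold and 10916 (5457 and 5459) with no fold rule. DESeq2 called 3632, of which 3209 were among the 3409. Other scaling, leaving out mitochondrial genes, no filter, a filter of 10 counts in every library, a fit of all 9 libraries and a correction for length and GC gave between 2385 and 4324. Leaving out single libraries gave 3511 to 3634. Among those of the 3409 that could be tested under an alternative (2391 with 10 counts in every library, 3378 or more otherwise), none changed direction. The genes past the adjusted p in NR against SP (66) were 143 (69 higher, 74 lower) with DESeq2, and 10 to 188 when single libraries were left out (10 without NR 2, 11 without SP 1, 18 without SP 2, 23 without NR 3, 144 without NR 1 and 188 without SP 3; higher 4 to 90, lower 4 to 98). Same-numbered NR and Ab libraries correlated at -0.105, 0.00518 and -0.0568 in their deviations from the group means. Differently numbered ones correlated at -0.0734 to 0.125. These values show no sign of pairing by number, but so few libraries cannot exclude it. With the replicate block 3414 genes were called (1869 and 1545, 3367 among the 3409), and 51 in NR against SP. COL3A1 ranged from -0.43 (without Ab 3) to 0.46 (without Ab 1) around 0.03, turning also without NR 1 (-0.12) and NR 2 (-0.06). Of 361 named called genes, 55 lost the call under at least 1 alternative. The causes were not tested. Depth limits genes near the floor: 86 called genes had all Ab libraries, and 37 all NR libraries, at or under 3 counts, and their fitted folds are not bounds.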
